A study of Mus musculus with 2 samples.

Results

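A set of 35 nuclear receptor genes other than the PPARs, RXRs and RARs was followed in whole ureters of E16.5 mouse embryos. They were chosen by name. A gene was a member if its symbol on the array had the form of the systematic nuclear receptor names (Nr, a subfamily number, a group letter and a gene number), with Nr5a1 left out, or if it was 1 of 13 receptors with older names: Esr1, Esr2, Pgr, Thra, Thrb, Vdr, Rora, Rorb, Esrra, Esrrb, Esrrg, Hnf4g and Nr0b2. This gave 35 of the 29982 genes with values, 22 by pattern and 13 by list, on 55 probes.

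A pair of RNA pools was compared on each of 2 whole-genome mouse oligonucleotide arrays. One pool came from Pparg-cKO embryos of genotype Pax2-cre/+;Pparg fl/fl. The other came from littermates without cre that carried at least 1 floxed Pparg allele, so that floxed alleles were present on both sides. Pax2-cre acts in the nephric duct and its derivatives, which include the ureteric epithelium and the collecting ducts, and the deleted part of Pparg is the exon 2 and exon 3 region. The other cells of the ureter wall keep the gene. The colony was kept on the outbred NMRI background. Each pool held ureters of several embryos of 1 sex, female for array 1 and male for array 2, and the dyes were exchanged between the arrays. Dye and sex therefore changed together and cannot be told apart. One stage label, that of the second channel, gives E14.5 where the title and the protocol give E16.5.

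Nuclear receptors are transcription factors that carry a DNA-binding domain with zinc fingers and a ligand-binding domain. Steroid receptors are held by chaperones until hormone binds, the glucocorticoid and mineralocorticoid receptors largely in the cytoplasm and the oestrogen and progesterone receptors mainly in the nucleus, whereas receptors such as those for thyroid hormone, vitamin D, oxysterols and bile acids sit on DNA, mostly as partners of RXR, and exchange corepressors for coactivators when a ligand arrives. Others have no known ligand, among them the COUP-TF, NR4A and oestrogen-related receptors. PPARG, the product of the gene deleted here, belongs to the same family and also works with RXR.

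For orientation, upstream sequence of the 4 members on which the comparisons below turn is given first: Nr5a2 and Pgr had the highest mean ratios, Esr2 had the lowest mean ratio among the members below 0 on both arrays, and Nr1i3 differed most in level between the arrays. The sequences are RefSeq's 250 bases before a transcription start in build GRCm38.p6, written 5′ to 3′ on the gene's strand. Capitals mark the motif matches on either strand. AGGTCA is the half-site read by many nuclear receptors. AGAACA, found here also as its reverse complement TGTTCT, is a half-site of glucocorticoid and progesterone receptors. The E-box, read by clock factors, is the palindrome CACGTG. None of the motifs overlap one another in these windows. Nr5a2 had 2 starts on chromosome 1, minus strand, the upper one covering chr1:136960449-136960698 and the lower one chr1:136953631-136953880. The Pgr window was chr9:8899583-8899832 on the plus strand, the Esr2 window chr12:76177260-76177509 on the minus strand and the Nr1i3 window chr1:171213720-171213969 on the plus strand.
Nr5a2, upper start: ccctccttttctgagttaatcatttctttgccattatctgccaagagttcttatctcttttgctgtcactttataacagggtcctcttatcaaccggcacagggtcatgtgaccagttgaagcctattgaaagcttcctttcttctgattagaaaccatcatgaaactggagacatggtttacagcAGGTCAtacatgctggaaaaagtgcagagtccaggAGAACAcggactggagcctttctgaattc
Nr5a2, lower start: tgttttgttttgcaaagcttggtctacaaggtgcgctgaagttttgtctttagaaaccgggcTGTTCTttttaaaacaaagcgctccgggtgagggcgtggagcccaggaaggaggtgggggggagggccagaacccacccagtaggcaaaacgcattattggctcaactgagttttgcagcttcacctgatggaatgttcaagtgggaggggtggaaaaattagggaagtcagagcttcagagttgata
Pgr: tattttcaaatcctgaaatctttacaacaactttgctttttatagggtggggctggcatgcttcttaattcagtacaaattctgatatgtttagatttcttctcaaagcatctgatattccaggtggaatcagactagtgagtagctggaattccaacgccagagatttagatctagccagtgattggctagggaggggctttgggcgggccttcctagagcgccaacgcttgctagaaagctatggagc
Esr2: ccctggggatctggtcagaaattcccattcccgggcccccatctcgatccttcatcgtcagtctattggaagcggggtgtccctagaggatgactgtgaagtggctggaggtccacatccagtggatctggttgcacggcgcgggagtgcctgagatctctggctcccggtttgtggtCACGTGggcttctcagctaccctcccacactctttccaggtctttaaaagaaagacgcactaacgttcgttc
Nr1i3: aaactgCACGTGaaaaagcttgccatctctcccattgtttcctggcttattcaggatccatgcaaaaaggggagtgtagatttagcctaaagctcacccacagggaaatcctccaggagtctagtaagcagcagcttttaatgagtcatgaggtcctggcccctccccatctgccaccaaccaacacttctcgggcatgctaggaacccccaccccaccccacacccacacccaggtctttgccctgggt

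Of the 35 members, 32 had an entry among the RefSeq promoters used (43 windows). Thra, Nr3c1 and Hnf4g had none. AGGTCA or its reverse complement stood in 5 of the 43 windows (11.6%), those of Nr1d2, Nr1h4, Nr5a2, Nr6a1 and Thrb, beside 14.0% of all 32851 windows of that length. AGAACA or its reverse complement stood in 4 windows (9.30%), of Esrrb, Nr5a2 and Thrb, beside 16.1% of all windows. CACGTG stood in 4 (9.30%), of Esr2, Nr0b2, Nr1i3 and Thrb, beside 6.02%. A match describes the letters only. The arrays measured transcripts and no binding.

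All ratios below are log2 of RNA A over RNA B within an array. RNA A was the pool in the red channel of array 1 and the green channel of array 2, and RNA B was the other pool. The labels make RNA A the control and the study's own tables read the other way, so no ratio is assigned to a genotype. Values are background-subtracted, dye-normalised signals as deposited, averaged over the 3 or 4 unflagged spots of a probe, and each gene is represented by its brightest probe. A signal depends on the probe, so levels of different genes are not compared. A gene counted as detected if the same RNA, A or B or both, stood well above background on both arrays. This held for 28 of the 35 members and for 21429 of all genes.

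Probe spots well above background made up 80.3% (array 1) and 80.4% (array 2) of the green channel and 70.4% of the red on either. Pparg itself had ratios of 0.60 and 0.71. Its probe was not placed relative to the deleted exons, so it checks no label. Markers of the urothelium (10 of 10 detected) had a median ratio of -0.47. Upk1a, Upk3a and Upk3b of the superficial cell plaque were past 1.5-fold in favour of RNA B on both arrays (means of -1.32, -0.70 and -1.69). Upk1b and Upk2 were also below 0 on both arrays (means of -0.61 and -0.57). Krt5, of basal cells, was above 0 on both arrays (0.26 and 0.67). Trp63 (-0.31 and 0.10), Cdh1 (-0.59 and 0.15), Epcam (0.24 and -0.05) and Grhl3 (-0.82 and 0.06) changed sign. Markers of ureter mesenchyme and smooth muscle (9 of 9 detected) had a median of -0.56. The mesenchymal Tbx18, Tcf21 and Aldh1a2 had means of 0.01, -0.05 and -0.02. The smooth muscle genes Acta2, Tagln, Myh11, Cnn1 and Myocd were below 0 on both arrays (means of -0.56, -0.56, -0.80, -0.72 and -0.58). Des changed sign (-0.44 and 0.19). The labelled tissue was thus represented by both of its layers. In whole ureters, fewer cells of a type and less RNA per cell cannot be told apart.

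No nuclear receptor passed a test for a difference between RNA A and RNA B. With the study's filter of 1.5-fold, in 1 direction and on each array, with a signal of 100 in the brighter RNA, 0 of 35 members were brighter in RNA A (0.157% of all genes were) and 0 were brighter in RNA B (0.230% of all genes). In limma across all detected genes with Benjamini-Hochberg adjustment at 0.05, 0 of 28 were brighter in RNA A (0.126% of genes) and 0 in RNA B (0.187%). At an unadjusted p under 0.05 the counts were also 0 and 0, beside 1.68% and 2.10% of genes. Nr5a2 had the lowest unadjusted p, at 0.0687 in limma, and the adjusted p was 1.00 for all 28. At each of these shares, fewer than 1 call would fall among 28 or 35 genes.

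The mean ratios of the 28 detected members ran from -0.42 (Thra) to 0.53 (Nr5a2), with a median of -0.05 against 0.01 over all detected genes. For 21 of the 28 (75.0%) the mean lay within 0.15 of 0, as it did for 66.5% of all detected genes. The 95% limma intervals had half-widths of 0.45 to 0.65, so that a 2-fold difference lay outside the interval for 27 members, all but Nr5a2, and a 1.5-fold difference lay outside it for 11. With 2 arrays, an exact sign-flip permutation test of a single gene cannot fall below a two-sided p of 0.5.

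**Figure D1:**
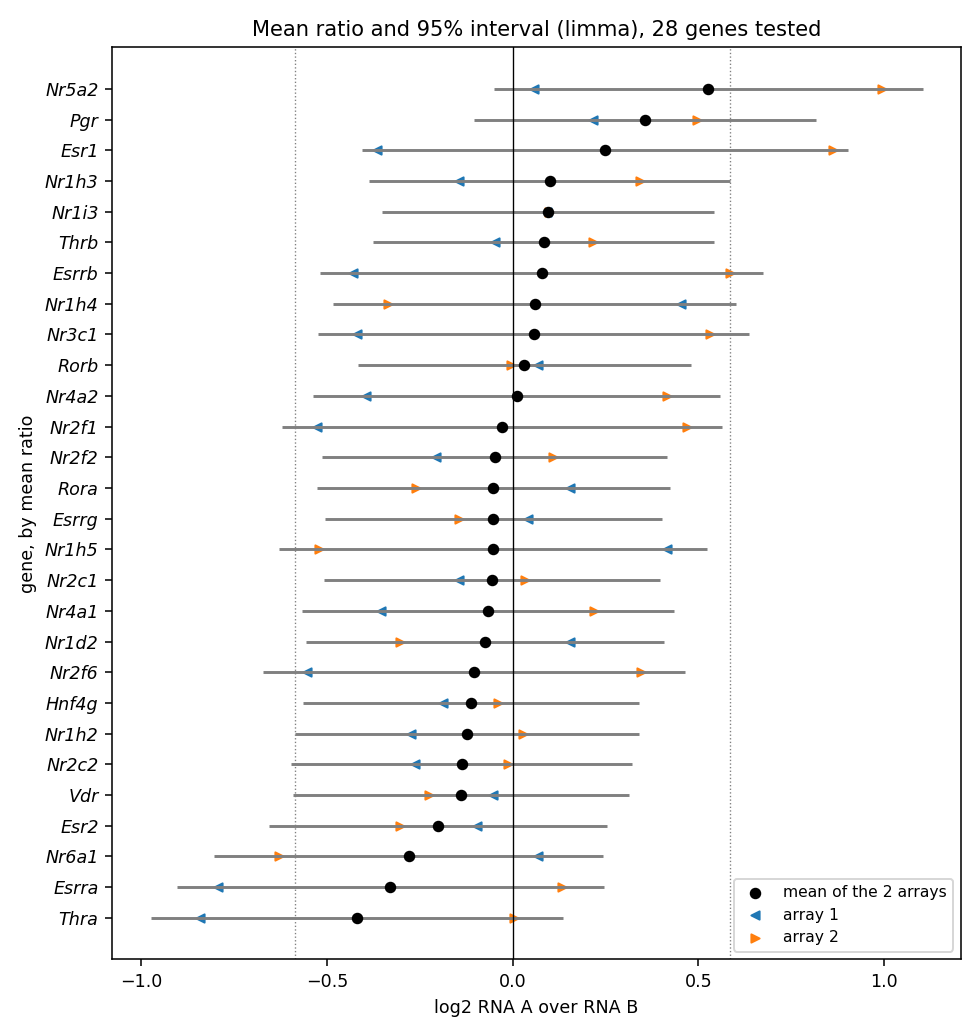
Mean log2 ratio of RNA A over RNA B (black points) with the 95% limma interval (grey bars) and the ratio on each array (triangles) for the 28 detected nuclear receptor genes, ordered by mean, with dotted lines at 1.5-fold. All 28 intervals include 0, and the means run from -0.42 for Thra to 0.53 for Nr5a2.

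The ratios of most members changed sign between the arrays. Only 3 members were above 0 on both arrays (Pgr, Nr5a2 and Nr1i3; 21.6% of all detected genes were) and 4 were below 0 on both (Esr2, Vdr, Hnf4g and Nr2c2; 14.3%, against 17.4%). The other 21 had opposite signs. In 14 of these, the green channel was the brighter one on both arrays (50.0%, against 32.6% of all detected genes), and in 7 the red channel was (25.0%, against 28.4%). No member was past 1.5-fold in opposite directions at a signal of 100 (0.430% of all genes). The part of a ratio that differed between the arrays was taken as the distance of each ratio from their mean. Dye and sex cannot be told apart in it. Its median absolute size was 0.24 for the members and 0.15 for all detected genes, while the median absolute mean ratio was 0.09 and 0.10.

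**Figure D2:**
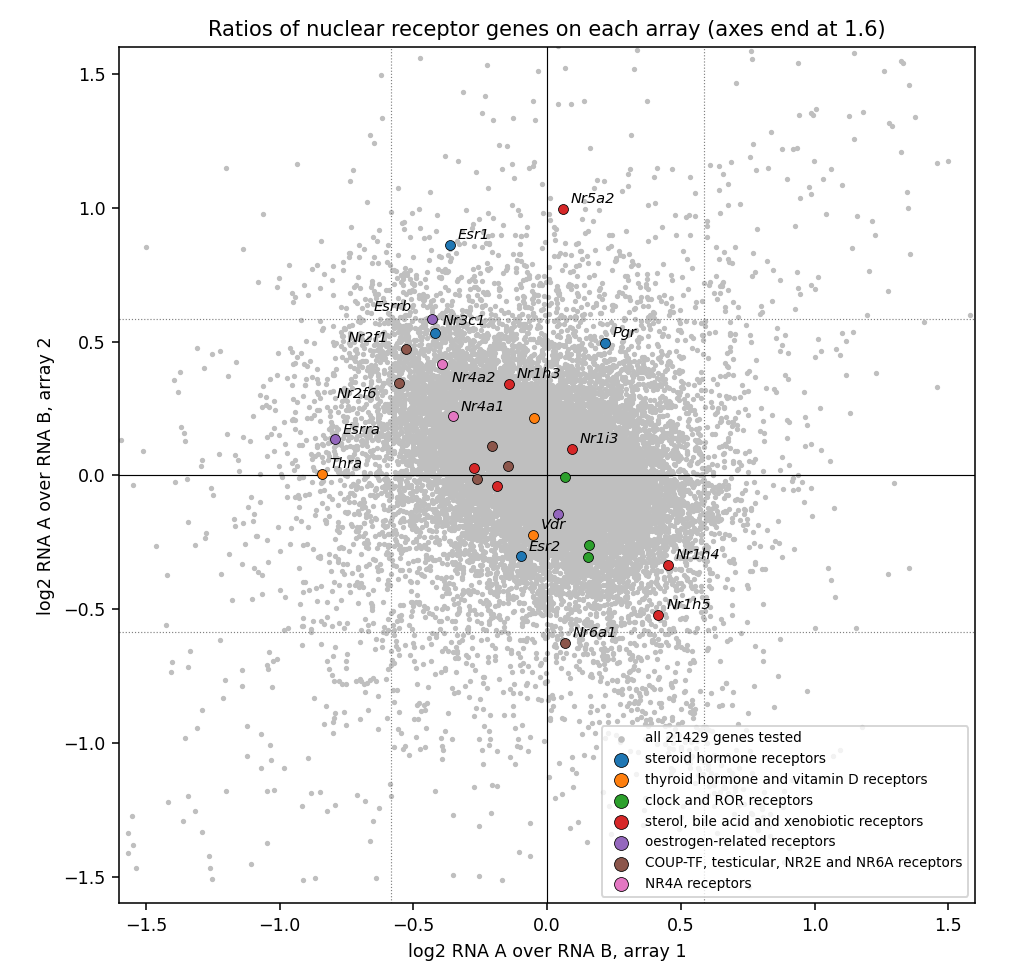
Log2 ratio of RNA A over RNA B on array 1 (horizontal) against array 2 (vertical) for the detected nuclear receptor genes, coloured by receptor group, over all 21429 detected genes in grey, with dotted lines at 1.5-fold and both axes ending at 1.6. The members lie mainly in the upper left (14 genes) and lower right (7 genes) quadrants, where the 2 arrays differ in sign.

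The steroid hormone receptors were all detected except Nr3c2. Pgr, the progesterone receptor, was 1 of the 3 members brighter in RNA A on both arrays. RNA A read 95.9 (array 1) and 89.4 (array 2), and RNA B read 82.5 and 63.4. Both values of RNA A lay above both values of RNA B. The ratios were 0.22 and 0.50, a mean of 0.36 ± 0.20 (SD, n = 2) or 1.28-fold, with a limma interval of -0.10 to 0.82 and adjusted p = 1.00. The probe lies at chr9:8968492-8968551 in mm9, and the other 2 Pgr probes missed the detection rule.

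Esr2, oestrogen receptor beta, had ratios of the other sign. With RNA A given first here and below, array 1 read 2190 and 2341 and array 2 read 2107 and 2600. Both values of RNA A lay below both values of RNA B. The ratios were -0.10 and -0.30, a mean of -0.20 ± 0.15 (SD, n = 2) or 1.15-fold in favour of RNA B, with an interval of -0.65 to 0.25. Its probe lies at chr12:77221426-77221485 in mm9.

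Esr1, oestrogen receptor alpha, was dim, at 21.8 and 28.1 on array 1 and 26.1 and 14.4 on array 2. The ratio turned from -0.36 to 0.86, which is the widest swing of any detected member, and the green channel was the higher on both arrays. The other 3 Esr1 probes missed the detection rule. Nr3c1, the glucocorticoid receptor, behaved likewise at high signal, with 6392 and 8541 on array 1 and 9339 and 6461 on array 2, or ratios of -0.42 and 0.53. A second Nr3c1 probe at 394 to 512 gave the opposite signs, 0.38 and -0.15, while both probes averaged within 0.06 of each other (0.06 and 0.11). Nr3c2, the mineralocorticoid receptor of salt-transporting epithelia, gave 7.48 and 7.93 on array 1 and 8.17 and 6.65 on array 2 and was well above background in the green channel only.

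Around these receptors, lists of related genes showed no call either. Of 10 genes known to be induced by glucocorticoid, 10 were detected, 2 lay above 0 and 2 below 0 on both arrays, and the median was 0.05. Mt2, a metallothionein, was the lowest at -0.51 and -0.47, and Klf9 was the highest at 0.03 and 0.32. The 8 chaperones and cochaperones of steroid receptors had a median of 0.03, from Fkbp4 (-0.35 and 0.00) to Hsp90aa1 (-0.03 and 0.27). The oestrogen and progesterone list (6 of 8 detected; median -0.01) ran from Sult1e1, which sulphates oestrogen, at -0.06 and -0.04, to Gper1, the membrane oestrogen receptor, at 0.02 and 0.09.

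Among the thyroid hormone and vitamin D receptors, Thra, thyroid hormone receptor alpha, had the lowest mean ratio of all detected members. It read 2906 and 5207 on array 1 and 5017 and 5002 on array 2. One value of the 4, RNA A on array 1, stood below the other 3, which lay within 4.1% of one another. The ratios were -0.84 and 0.00, a mean of -0.42 ± 0.60 (SD, n = 2) with an interval of -0.97 to 0.14, and the probe lies at chr11:98626356-98626415 in mm9. A second Thra probe gave 563 and 632 on array 1 and 854 and 893 on array 2, or -0.17 and -0.06. Both probes were therefore below 0 on array 1, by different amounts.

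Thrb, thyroid hormone receptor beta, stayed close to 0: its 4 signals lay between 48.8 and 57.8, and the ratios were -0.05 and 0.21. A second Thrb probe at 23.0 to 28.7 gave -0.01 and 0.15. Vdr, the vitamin D receptor, gave 27.8 and 28.9 on array 1 and 25.8 and 30.1 on array 2. RNA B was the higher on both arrays, by ratios of -0.05 and -0.22, a mean of -0.14 ± 0.12 (SD, n = 2) with an interval of -0.59 to 0.31.

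Of 10 genes of thyroid hormone transport, deiodination and response, 8 were detected, 3 above and 3 below 0 on both arrays, with a median of -0.02. Hr, a corepressor induced by thyroid hormone, had the lowest mean of the detected pathway genes at -0.998 and -0.43 (limma adjusted p = 0.645), and Klf9 was the highest at 0.03 and 0.32. The corticoid and vitamin D metabolism list (5 of 6 detected, median 0.09) ran from Cyp2r1, a vitamin D 25-hydroxylase, at 0.23 and -0.17, to Hsd11b2, which inactivates corticosterone, at -0.20 and 0.41.

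**Figure D3:**
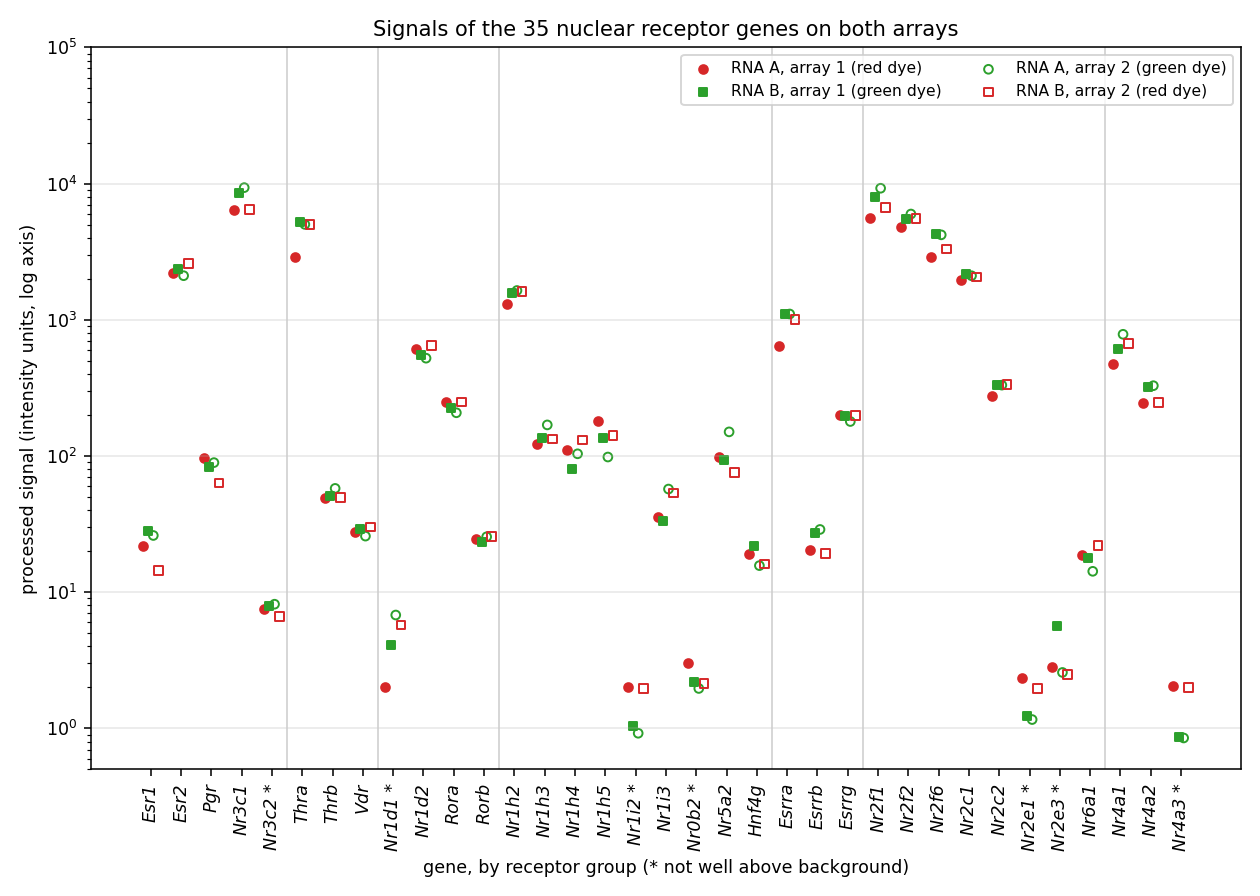
Processed signal, on a log axis, of each of the 35 nuclear receptor genes in RNA A (circles) and RNA B (squares) on array 1 (filled) and array 2 (open), with red symbols for the red dye and green symbols for the green dye, and vertical lines between receptor groups. The 4 values of most genes lie close together on this axis, the 7 genes marked with an asterisk lie under 10, and levels cannot be compared between genes.

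The clock receptors were represented by Nr1d2, Rora and Rorb. Nr1d2 (REV-ERB beta), which represses Arntl, gave 614 and 551 on array 1 and 523 and 645 on array 2, or ratios of 0.15 and -0.30. Its second probe, at 438 to 463, gave 0.06 and -0.01. Rora, which activates Arntl from the same element, gave 251 and 225 on array 1 and 208 and 249 on array 2. On their brightest probes, Rora and Nr1d2 thus turned from above 0 to below 0 alike, the red channel being the higher on both arrays. A second, dimmer Rora probe was below 0 on both arrays (-0.23 and -0.21). Rorb, a neural and retinal receptor, stayed between 23.6 and 25.6 in all 4 channels. Nr1d1 (REV-ERB alpha) missed the detection rule, with 2.03 and 4.10 on array 1 and 6.80 and 5.74 on array 2.

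Of 15 other clock genes, 13 were detected, 1 above 0 and 3 below 0 on both arrays, with a median of -0.04. Bhlhe40, a repressor of the clock, was the highest (0.18 and 0.50) and Per3 the lowest (-0.29 and -0.54). None was called.

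The sterol, bile acid and xenobiotic receptors held the highest mean ratio of all members. Nr5a2 (LRH-1), which drives bile acid and steroid genes in liver, gut and ovary, read 97.6 and 93.8 on array 1 and 150 and 75.5 on array 2. RNA A exceeded RNA B on both arrays, by 1.04-fold and 1.99-fold. The ratios were 0.06 and 0.99, a mean of 0.53 ± 0.66 (SD, n = 2) with an interval of -0.05 to 1.10, and the probe lies at chr1:138740903-138740962 in mm9. A dimmer Nr5a2 probe gave 19.9 and 14.4 on array 1 and 17.01 and 15.5 on array 2. It too was above 0 on both arrays, at 0.47 and 0.13, with the larger ratio on the other array.

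Markers of adrenal, gonad and liver, organs in which Nr5a2 or its targets are known, gave signals in these samples. The cells that gave them were not tested. Star, Cyp11a1 and Cyp11b1 were dim, at 8.40 to 35.2. The study counts Ttr, a liver marker here, among genes of superficial cells. The 6 steroidogenic markers, all detected, had summed signals of 221 and 214 on array 1 and 176 and 289 on array 2. They ran from Hsd3b1 (-0.47 and -2.00) to Cyp11a1 (0.59 and -0.04), and Cyp17a1 was above 0 on both arrays (0.02 and 0.11). The 6 liver markers, all detected, had summed signals of 6970 and 6620 on array 1 and 2223 and 5640 on array 2, and all 6 were between -0.92 and -1.69 on array 2. On that array both sums were lower in RNA A, while Nr5a2 was higher in it. Their part in the Nr5a2 ratio was not tested.

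Nr1i3 (CAR), a sensor of foreign compounds in liver, gave 35.6 and 33.4 on array 1 and 57.2 and 53.4 on array 2. The ratio was the same on both arrays (0.09 and 0.10), and the level differed between them. The liver receptor for bile acids, Nr1h4 (FXR), gave 110 and 80.5 on array 1 and 104 and 131 on array 2, or 0.45 and -0.33. Nr1h5 (FXR beta, a receptor for lanosterol in mice) gave 180 and 135 on array 1 and 98.3 and 141 on array 2, or 0.42 and -0.52. Both FXR genes were brighter in red on both arrays. Hnf4g, a relative of the hepatic factor HNF4A, gave 19.1 and 21.7 on array 1 and 15.7 and 16.1 on array 2, and was below 0 on both, at -0.19 and -0.04 (mean -0.11 ± 0.10, SD, n = 2).

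The oxysterol receptors had mean ratios of -0.12 (Nr1h2) and 0.10 (Nr1h3), from ratios that changed sign between the arrays. Nr1h2 (LXR beta) gave 1305 and 1578 on array 1 and 1641 and 1609 on array 2, or -0.27 and 0.03. Nr1h3 (LXR alpha) gave 122 and 135 on array 1 and 169 and 133 on array 2, or -0.14 and 0.34. Its second probe had the same signs (-0.11 and 0.48). Nr1i2 (PXR) and Nr0b2 (SHP), a corepressor without a DNA-binding domain, lay between 0.92 and 3.02 and were not well above background in any channel.

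The 11 LXR target genes, all detected, had a median of -0.04. They ran from Srebf1, the lipogenic factor, at -0.63 and 0.14, to Smpdl3a at 0.29 and 0.13, with 2 above 0 and 2 below 0 on both arrays. Of 8 targets of bile acid and xenobiotic receptors, only Cyp3a11, a drug-metabolising enzyme, was detected, at -0.93 and 0.11.

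The oestrogen-related receptors control genes of mitochondrial energy metabolism. Esrra read 640 and 1108 on array 1 and 1103 and 1005 on array 2, so that again a single value, RNA A on array 1, lay below the other 3. The ratios were -0.79 and 0.13, a mean of -0.33 ± 0.66 (SD, n = 2) with an interval of -0.90 to 0.25, and the probe lies at chr19:6985503-6985562 in mm9. Esrrb gave 20.4 and 27.4 on array 1 and 28.9 and 19.2 on array 2, or -0.43 and 0.59. Esrrg stayed between 179 and 201 in all 4 channels and its second probe between 131 and 138, with means of -0.05 for both.

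Taken 1 array at a time, 2 of 35 members were past 1.5-fold at a signal of 100 in favour of RNA B on array 1, Thra and Esrra (5.71%, against 2.12% of all genes), and 0 were in favour of RNA A (1.07% of genes). On array 2 the only one was Nr5a2, in favour of RNA A (2.86%, against 1.00% of genes), and 0 were in favour of RNA B (1.63% of genes). None of the 3 passed on the other array.

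The COUP-TF and testicular receptors had small mean ratios. Nr2f1 (COUP-TFI) gave 5573 and 8026 on array 1 and 9243 and 6671 on array 2, or -0.53 and 0.47, and its second probe gave -0.54 and 0.24. Nr2f2 (COUP-TFII), a factor of mesenchyme, veins and lymphatics, gave 4782 and 5514 on array 1 and 5978 and 5545 on array 2, or -0.21 and 0.11. Nr2f6 gave 2910 and 4269 on array 1 and 4204 and 3308 on array 2, or -0.55 and 0.35. In all 3 the green channel was the higher on array 1 and on array 2.

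Nr2c1 (TR2), a repressor of embryonic globin genes in erythroid cells, stayed between 1958 and 2165. Nr2c2 (TR4), its partner, gave 277 and 332 on array 1 and 331 and 334 on array 2, and was below 0 on both arrays with both of its probes, at -0.26 and -0.01 for the first and -0.09 and -0.08 for the second. The mean of the first was -0.14 ± 0.18 (SD, n = 2). Nr2e1 (TLX, a factor of neural stem cells) and Nr2e3 (a photoreceptor factor) lay between 1.16 and 5.69 and were not detected. Nr6a1 (GCNF), which silences pluripotency genes, gave 18.8 and 17.9 on array 1 and 14.2 and 22.0 on array 2, or 0.07 and -0.63.

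The NR4A receptors are immediate early genes that act without a ligand. Nr4a1 (NUR77) gave 476 and 607 on array 1 and 783 and 672 on array 2. Nr4a2 (NURR1) gave 243 and 320 on array 1 and 328 and 246 on array 2, and its second probe had the same signs (-0.11 and 0.33). Both turned from below 0 to above 0. Nr4a3 (NOR1) lay between 0.85 and 2.05 and was not well above background.

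Of 12 other immediate early genes, 11 were detected, 5 above 0 and 3 below 0 on both arrays, with a median of 0.07. Atf3 was the highest (0.48 and 0.46) and Fos the lowest (-0.50 and -0.19). The 16 coactivators and corepressors of nuclear receptors, all detected, had a median of -0.09. Ncoa7 was the highest (0.44 and -0.02) and Ppargc1b, a coactivator of the oestrogen-related receptors, the lowest (-0.64 and -0.05). Over all 10 lists, 85 of 100 genes were detected, 0 were called by limma, 0 passed the 1.5-fold filter, and 3 had an unadjusted p under 0.05: Atf3 in favour of RNA A, Mt2 and Hr in favour of RNA B.

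Of the members, 12 had more than 1 detected probe, and in 9 of them the probes' mean ratios lay within 0.15 of each other. The exceptions were Thra (-0.42 and -0.12), Nr5a2 (0.53 and 0.30) and Rora (-0.05 and -0.22). These pairs kept one sign between their means.

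Levels were also compared between the arrays, which differ, as far as the labels say, in the sex of the embryos and in which pool carried which dye. Each array carried both dyes, so a dye effect cancels in the mean of its channels. No member was called in either direction by limma with terms for RNA and array (0.117% of all detected genes were called higher on array 2 and 0.261% higher on array 1). At an unadjusted p under 0.05, 1 of 28 members was higher on array 2 (3.57%, against 1.45% of genes) and 0 were higher on array 1 (3.17% of genes).

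That member was Nr1i3. It was 1.54-fold higher on array 2, a log2 difference of 0.62 with a 95% interval of 0.17 to 1.07 (adjusted p = 0.586 in limma over all detected genes). The difference was 0.62 in RNA A and 0.62 in RNA B, so both pools showed it. Its probe lies at chr1:173147776-173147835 in mm9, and its other probe was not well above background. The 6 liver markers had differences of the other sign, with a median of -1.10, and their part in the level of Nr1i3 was not tested.

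The largest differences in the other direction were those of Nr1h5 (-0.50, interval -1.08 to 0.08), Esr1 (-0.38, -1.04 to 0.27) and Hnf4g (-0.38, -0.83 to 0.07). For Nr1h5 the difference was -0.97 in RNA A and -0.03 in RNA B, and for Esr1 it was 0.23 in RNA A and -0.996 in RNA B. Each RNA changed dye between the arrays. A difference within 1 RNA therefore includes a dye effect, which cancels only in the mean of both RNAs, and the gap cannot be assigned to 1 pool. For Hnf4g the difference was below 0 in both RNAs (-0.30 in RNA A and -0.45 in RNA B), as it was for Pgr (-0.19 and -0.47). The nephron markers had a median difference of -0.46, with 6 of 9 detected (not Nphs1, Umod and Slc12a1). Their summed signals were 1530 and 2070 on array 1 and 1194 and 1276 on array 2. The collecting duct markers, 5 of 6 detected (not Avpr2), also had a median of -0.46, with sums of 1501 and 1367 on array 1 and 1365 and 1005 on array 2. Hnf4g is expressed in kidney tubules and gut, and the part of these lists in its difference was not tested.

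**Figure D4:**
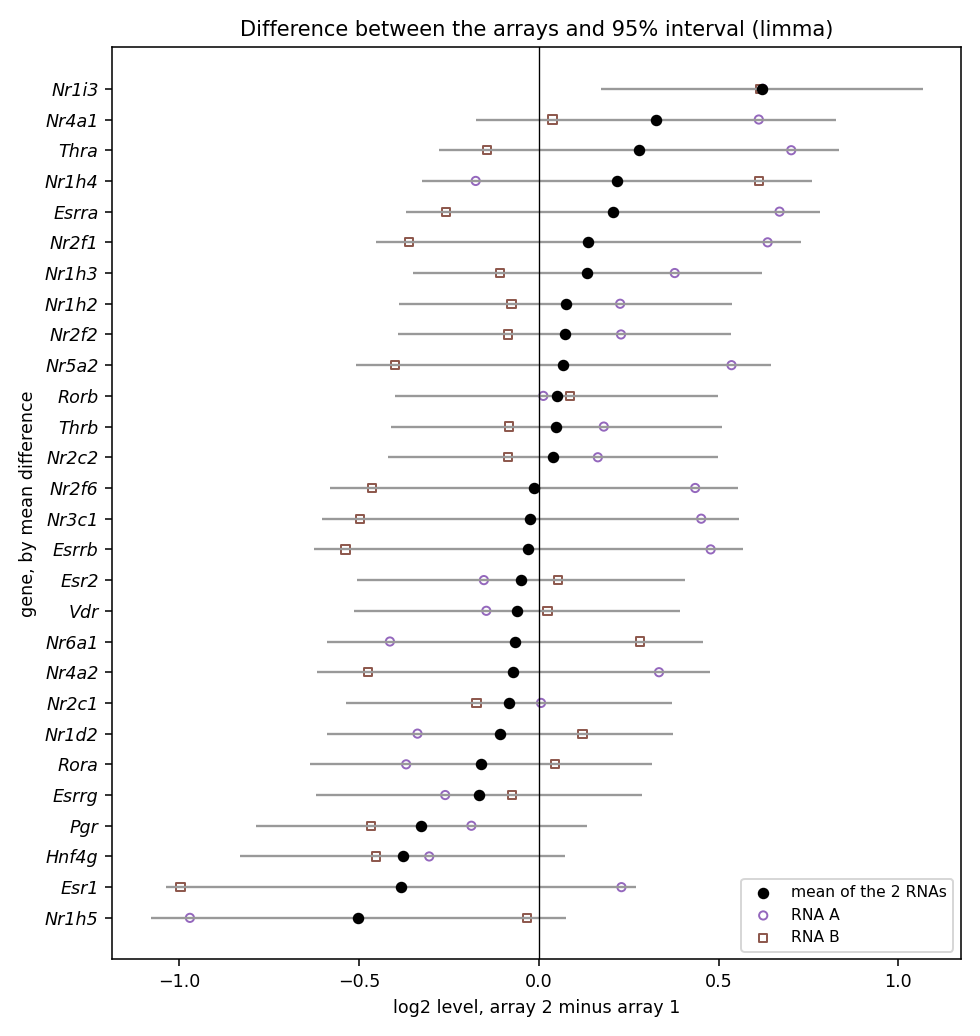
Log2 level on array 2 (male pools) minus array 1 (female pools) for the 28 detected nuclear receptor genes, in RNA A (open circles), in RNA B (open squares) and as their mean (black points) with the 95% limma interval (grey bars). The interval of Nr1i3, at 0.62, is the only 1 of the 28 that leaves out 0, and its adjusted p was 0.586.

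The median difference between the arrays was -0.02 over the 28 members and -0.01 over all detected genes, and the median absolute difference was 0.10 in both. Endothelial, macrophage, nerve and red blood cell markers, which could bring in receptors of those cells, had median ratios between RNA A and RNA B of 0.12, 0.15, 0.18 and 0.06. On array 1 and array 2 the medians were 0.50 and -0.05 (endothelial), 0.18 and 0.13 (macrophage), -0.13 and 0.48 (nerve), and -0.07 and 0.34 (red blood cell). All 5 macrophage markers were above 0 on both arrays, against 0 endothelial, 0 nerve and 1 red blood cell marker. Collecting duct markers had a median of -0.06 and nephron markers a median of -0.40. The detected collecting duct markers were split. Fxyd4 (0.77 and 1.56) and Aqp2 (0.16 and 0.08) were above 0 on both arrays. Scnn1b (-0.42 and -0.23) and Scnn1g (-0.21 and -0.90) were below 0 on both, and Tfcp2l1 changed sign (-0.17 and 0.06). The part of these marker lists in the ratios of the members was not tested.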

How the data were processed

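In all, 2 samples were analysed, each a 2-colour Agilent array. The authors' scanner files, made with Agilent Feature Extraction 10.7.3.1 and probe positions of mm9, hold the deposited intensity of each spot in both channels (background-subtracted and dye-normalised) and a log10 ratio. The log10 ratios deposited by the authors served to check the channels. The authors' table of processed values holds a signed fold change, a score treated as an alternative source here. Per array it holds no value between -1 and 1, has a median of 1 and correlated with RNA A over RNA B at r = 0.996 (18720 probes) and 0.997 (18978 probes); which genotype it sets over the other is not stated in it.

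Unflagged spots were averaged per probe as log2 processed signals (log2 values computed from the deposited intensities). The 39429 probes were named through RefSeq where possible (28328; the other 11101 kept the file's name), and the brightest probe represented a gene. Array 1 and array 2 lost 5705 and 5579 of 157716 probe spots to flags, and none was saturated. Ratios were tested with limma 3.58.1 in R 4.3.3 (an intercept over 2 arrays), adjusted over 21429 genes; levels were compared between arrays after Aquantile scaling. Other scalings, sources, probe rules and thresholds were tried as alternatives. Scripts were tested on simulated data. Precision is limited by the number of arrays, and nothing says that the 2 pools of a kind are more than 1 collection each, so p-values measure the spread between these arrays. The pools also differ in sex.

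All members were named. Those with the same sign on both arrays, the extremes and the largest array differences got all 4 signals, and of each pathway list the genes past the filter, otherwise the highest and the lowest mean. Named marker genes were chosen after their values were seen. The members and the 20 gene lists were chosen with earlier results of these data known.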

Additional observations from a re-analysis of the deposited data

Results flagged for a closer look

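Of the 28 detected members, 15 had ratios of opposite sign on the 2 arrays with each ratio more than 2 standard errors of its spots from 0. No test was made of that difference, and dye and sex changed together. The ratio on array 1 minus the ratio on array 2 was -1.23 for Esr1, -1.02 for Esrrb, -0.997 for Nr2f1, -0.95 for Nr3c1, -0.93 for Esrra, -0.90 for Nr2f6, -0.81 for Nr4a2, -0.57 for Nr4a1, -0.49 for Nr1h3, -0.31 for Nr2f2 and -0.30 for Nr1h2. It was 0.94 for Nr1h5, 0.79 for Nr1h4, 0.46 for Nr1d2 and 0.41 for Rora. The second Nr3c1 probe had the signs reversed, and the second probes of Nr2f1, Nr4a2, Nr1h3 and Nr1d2 kept them, while the second Rora probe was below 0 on both arrays.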

How the results depend on the processing

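The count of 0 members called by limma held in both directions under all 8 alternatives (normexp and loess, loess on processed signals, median centring, the deposited table, the mean over probes, all probes without the dim-probe filter, an intensity trend and no replicate block), with adjusted p of 1.00 throughout. The 1.5-fold count ran from 0 to 1 in favour of RNA A and from 0 to 2 in favour of RNA B when 1 array was left out, and without a signal threshold 3 members were past 1.5-fold in opposite directions; under the other alternatives these counts were 0, as were the calls between arrays under 3 alternatives. Over all genes, limma called 27 and 40 (RNA A and RNA B), but 1 and 0 with normexp and loess, 8 and 20 with loess alone, 0 and 0 with the deposited table or all probes, and 1 and 0 without the block. With the mean over probes, 7 members in place of 4 were below 0 on both arrays. Of 140 mean ratios recomputed under 5 settings, 138 kept their sign. Nr4a2 turned to -0.000227 with normexp and loess and to -0.00152 with median centring; the cause was not tested. The thyroid hormone list's median, under an alternative chosen after seeing the data, was 0.0724 with the mean over probes.

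With 1 array left out, the mean of a member is the ratio on the other array, and the lowest and highest were: Esr1 -0.36 and 0.86, Nr3c1 -0.42 and 0.53, Thra -0.84 and 0.00451, Thrb -0.0480 and 0.21, Nr1d2 -0.30 and 0.15, Rora -0.26 and 0.16, Rorb -0.00477 and 0.0686, Nr1h2 -0.27 and 0.0282, Nr1h3 -0.14 and 0.34, Nr1h4 -0.33 and 0.45, Nr1h5 -0.52 and 0.42, Esrra -0.79 and 0.13, Esrrb -0.43 and 0.59, Esrrg -0.15 and 0.0413, Nr2f1 -0.53 and 0.47, Nr2f2 -0.21 and 0.11, Nr2f6 -0.55 and 0.35, Nr2c1 -0.15 and 0.0344, Nr6a1 -0.63 and 0.0676, Nr4a1 -0.35 and 0.22, and Nr4a2 -0.39 and 0.42. For the 7 members that missed the detection rule, signal over background limits any ratio.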
